A study of Mus musculus with 8 samples.

Results

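Hypoxia-inducible factor (HIF) target genes were followed through 4 conditions of mouse CD8+ T cells. The 10 genes were the factor subunit Hif1a and its known targets Egln1, Egln3, Bnip3, Ak4, Mgarp, Vegfa, Pdk1, P4ha1 and Ankrd37, found by symbol among the 24303 genes of the deposited table. All 10 were present. The set was chosen by its values in dysfunctional cells, where Ak4 and Mgarp had been seen among the strongest falls, so every comparison with the dysfunctional cells is given for these 10 genes as a description. Counts past the limits used for calls are printed there without p-values, and nothing is read from them. A fall is measured against other conditions, and these recur in the comparisons without dysfunctional cells. The p-values printed for those comparisons are therefore not free of the choice either. RNA-Seq had been performed on P14 cells, CD8+ T cells with a transgenic receptor for the GP33 peptide of lymphocytic choriomeningitis virus, to ask how long antigen and TGF-β1 exposure shapes dysfunction in culture.

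Naive cells came from spleens of uninfected male or female P14 mice on a C57BL/6 background, at least 8 weeks old, and were activated for 2 days on plates carrying anti-CD3 and anti-CD28. They were then pooled and kept with IL-2 and IL-15 in all conditions. Acute-2d cells saw no GP33 after day 2 and were collected on day 19. Acute-7d cells received GP33 until day 7 and rested until day 19. T_Dysf cells received GP33 until day 19 and TGF-β1 from day 7. Effector cells were collected on day 7, and the paper labels such cells elsewhere as stimulated for 7 days, with no rest. Antigen and TGF-β1 therefore changed together between T_Dysf and the rested cells. Effector differed from both rested conditions in day of collection and in rest, and from Acute-2d also in GP33. From T_Dysf it differed in day of collection, further GP33 and TGF-β1. Each condition had 2 libraries, described in the study as biological replicates. Which mouse or culture each came from is not given in the sources used here, so p-values measure the spread between these libraries.

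HIF is a pair of proteins whose alpha subunit, encoded by Hif1a, is made continuously and destroyed when oxygen is present, because the Egln prolyl hydroxylases mark it for the Vhl ubiquitin ligase. When the subunit is stable it pairs with Arnt and binds a short DNA core called the hypoxia response element. In T cells the factor is also raised by receptor and cytokine signaling without lack of oxygen, and its targets shift metabolism toward glycolysis, restrain mitochondrial use of pyruvate, promote mitophagy and feed back on the factor through Egln1 and Egln3.

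Promoter sequence is shown for 6 genes to let the response element be seen beside the values: Ak4 and Mgarp, lowest in T_Dysf, Bnip3 and Ankrd37, with the most matches, Egln3, and Vegfa, with none. Each line holds the 250 bases before the annotated start, 5′ to 3′ on the strand of the gene, from RefSeq on GRCm38.p6. Capitals mark ACGTG or GCGTG on either strand, read as CACGT or CACGC where the match lies on the opposite strand. A CACGTG run is a match on both strands.
Ak4: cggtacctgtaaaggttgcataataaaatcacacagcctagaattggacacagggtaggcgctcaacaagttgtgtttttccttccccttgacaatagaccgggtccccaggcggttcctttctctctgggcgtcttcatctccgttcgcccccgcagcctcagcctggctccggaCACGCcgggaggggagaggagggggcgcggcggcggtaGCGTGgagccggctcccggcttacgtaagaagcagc
Mgarp: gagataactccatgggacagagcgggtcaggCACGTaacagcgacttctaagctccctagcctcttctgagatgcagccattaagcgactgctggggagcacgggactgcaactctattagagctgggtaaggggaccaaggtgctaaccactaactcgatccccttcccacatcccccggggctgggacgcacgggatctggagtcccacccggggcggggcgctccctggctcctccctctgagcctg
Bnip3: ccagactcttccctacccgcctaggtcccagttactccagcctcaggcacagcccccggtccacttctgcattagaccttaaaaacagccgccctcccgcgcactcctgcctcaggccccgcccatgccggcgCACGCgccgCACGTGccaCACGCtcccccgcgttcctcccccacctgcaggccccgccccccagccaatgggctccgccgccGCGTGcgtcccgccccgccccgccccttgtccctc
Ankrd37: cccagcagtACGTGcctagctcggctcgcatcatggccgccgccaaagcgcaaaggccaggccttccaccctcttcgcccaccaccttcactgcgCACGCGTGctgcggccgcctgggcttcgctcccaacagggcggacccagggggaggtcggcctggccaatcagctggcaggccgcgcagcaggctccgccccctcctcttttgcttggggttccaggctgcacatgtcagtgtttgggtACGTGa
Egln3: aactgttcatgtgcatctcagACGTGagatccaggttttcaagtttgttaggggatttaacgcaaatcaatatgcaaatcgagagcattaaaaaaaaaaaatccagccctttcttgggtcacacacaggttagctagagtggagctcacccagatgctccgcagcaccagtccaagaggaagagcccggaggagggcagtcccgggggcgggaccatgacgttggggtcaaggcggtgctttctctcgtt
Vegfa: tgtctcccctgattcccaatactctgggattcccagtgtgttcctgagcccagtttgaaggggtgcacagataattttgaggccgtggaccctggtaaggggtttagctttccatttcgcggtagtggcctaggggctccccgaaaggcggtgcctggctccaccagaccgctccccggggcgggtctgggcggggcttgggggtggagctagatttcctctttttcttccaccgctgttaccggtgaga
The windows lie at chr4:101419039-101419288 on the plus strand for Ak4, and on the minus strand at chr3:51396548-51396797 for Mgarp, chr7:138909507-138909756 for Bnip3, chr8:45999851-46000100 for Ankrd37, chr12:54203875-54204124 for Egln3 and chr17:46032378-46032627 for Vegfa. Where RefSeq gave several starts, as for Ak4 with 4, Vegfa with 2 and Pdk1 with 2, the most upstream was used. The Ankrd37 window, and that of Hif1a at chr12:73907617-73907866, lie wholly inside the span of the gene in GENCODE vM21. For Hif1a and Egln3, bases 11 to 40 after the start were not found in the GENCODE transcripts of the gene. Matches in these 3 windows may therefore not lie at the main start.

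In windows of 300 bases, from 250 before to 50 after the start, 9 of the 10 genes held at least 1 match, and 23 matches were found in all. ACGTG was found in 7 and GCGTG in 6. Bnip3 held 5 matches, Ankrd37 held 4, Hif1a and P4ha1 held 3, Egln1, Ak4 and Pdk1 held 2, and Egln3 and Mgarp held 1. Either core was present in 56.8% of the 13674 promoters of genes in the table and in 43.8% of the 27025 promoters annotated. Of the promoters of the 10 genes, 70.0% held at least 2 matches, against 29.8% for genes of the table. All 10 averaged 50 normalized counts or more over the libraries, and among the 8636 promoters of genes with such a mean 65.1% held either core and 36.2% at least 2 matches. These genes were picked as HIF targets, and a match is a description of the letters, not a bound site. Matches outside the windows were not sought, so a gene with none here, as Vegfa, may have some elsewhere.

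**Figure D1:**
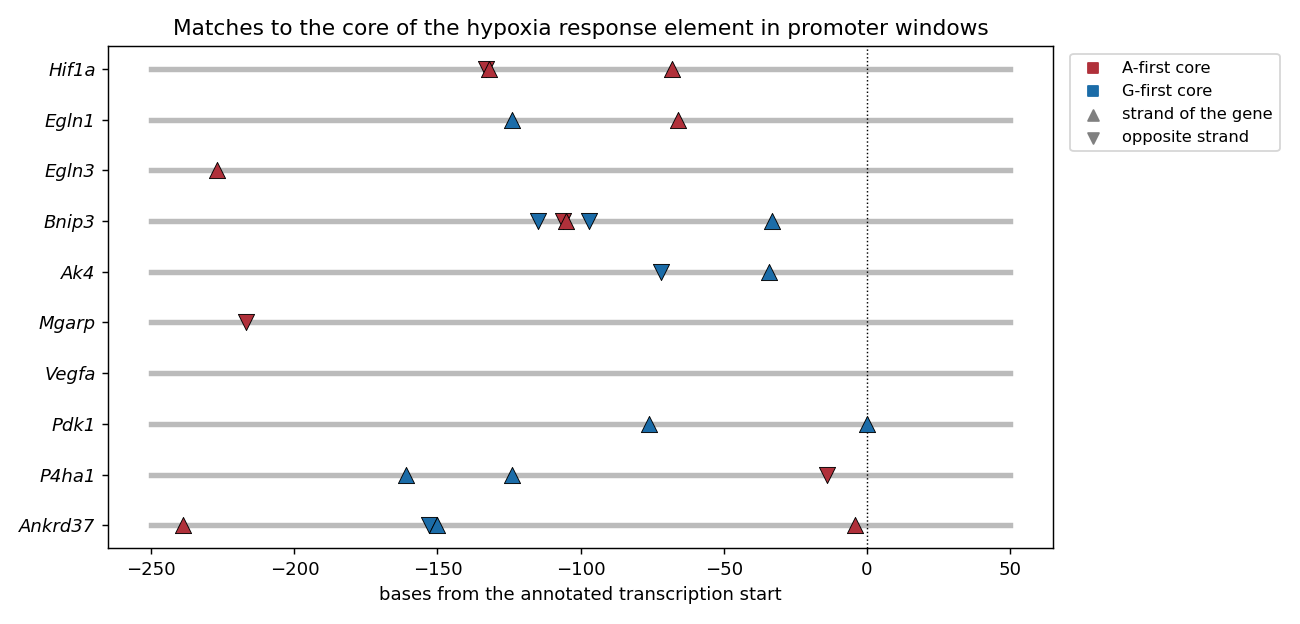
Positions of matches to the hypoxia response element core in the promoter windows of the 10 genes, in bases from the annotated transcription start. Each row is 1 gene, each triangle 1 match, red for ACGTG and blue for GCGTG, pointing up on the strand of the gene and down on the opposite strand. Vegfa alone has no triangle within its window, and Bnip3 has 5.

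Library totals corresponded to between 19382147 and 24856195 reads. The summed level of 8 T cell identity genes was 150600 to 153400 normalized counts in the rested cells, 123060 to 131690 in Effector and 243130 to 243430 in T_Dysf. The 3 CD4 T cell markers summed to 1056.9 to 1636 over all libraries, the 4 B cell markers to 25.7 to 53.2, the 5 myeloid markers to 300 to 713, the 3 NK markers to 1073.1 to 4545.2, highest in Acute-7d, and the 3 erythroid markers to 21.3 to 42.6. Most of the CD4 sum was Zbtb7b, at 1041 to 1625, while Cd4 was at most 13.04 and Foxp3 at most 49.48. Most of the NK sum was Eomes, at 828 to 3510, with Klrb1c at 243 to 1384 and Ncr1 at most 105. The part of these markers in the values that follow was not tested. Both Effector libraries and Acute-7d replicate 1 carried the prefix RESUB in their library names, and these 3 held Ddx3y at 1334 to 2161 and Xist at 53.5 to 115, while the other 5 held Xist at 21870.8 to 30427 and Ddx3y at 0 to 2.59. These are the values of male cells in the 3 prefixed libraries and of female cells in the other 5. Effector was made of prefixed libraries alone. Against Acute-2d and T_Dysf the prefix, the sex and the condition therefore cannot be told apart. The 2 Acute-7d libraries crossed this divide and differed by at most 0.31 on the log2 scale in any of the 10 genes.

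Values are read counts divided by a size factor per library, called normalized counts here. Differences are on the log2(normalized count + 1) scale, with a standard error from the limma fit to all 8 libraries. A gene is called when its fold change is at least 2 and its Benjamini-Hochberg adjusted p over 24303 genes is under 0.05.

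The factor gene itself varied least of the 10. Hif1a (chromosome 12, 73901375 to 73947530, plus strand, GRCm38) was at 5919 and 3659 normalized counts in Acute-2d, 3319 and 3629 in Acute-7d, 3536 and 6386 in Effector, and 2393 and 2029 in T_Dysf. Acute-2d and Effector overlapped, and both T_Dysf libraries were below the other 6. The hydroxylases followed another pattern. Egln1 (chromosome 8, 124908587 to 124949324, minus strand), which encodes the main oxygen sensor of the pathway, was at 5959 and 6578 in Acute-2d, 4318 and 4176 in Acute-7d, 2392 and 2098 in Effector, and 1920 and 2009 in T_Dysf. The 4 conditions did not overlap. Egln3 (chromosome 12, 54178981 to 54203860, minus strand), a hydroxylase strongly induced by HIF, was at 5315 and 7360 in Acute-2d, 3077 and 2801 in Acute-7d, 581 and 749 in Effector, and 431 and 342 in T_Dysf. The conditions again separated in the order Acute-2d, Acute-7d, Effector and T_Dysf, over a wider range than Egln1.

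Among genes acting at mitochondria, Bnip3 (chromosome 7, 138890836 to 138909519, minus strand), a receptor for mitophagy, was at 3284 and 4000 normalized counts in Acute-2d, 1683 and 1802 in Acute-7d, 889 and 680 in Effector, and 677 and 587 in T_Dysf. Effector and T_Dysf were adjacent, at 680 against 677 in their nearest libraries, and did not overlap. Pdk1 (chromosome 2, 71873224 to 71903858, plus strand), the kinase that inactivates pyruvate dehydrogenase, was at 9586 and 11050 in Acute-2d, 5383 and 5629 in Acute-7d, 2453 and 2018 in Effector, and 915 and 786 in T_Dysf. All 4 conditions were apart.

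Ak4 (chromosome 4, 101419277 to 101466995, plus strand), an adenylate kinase of the mitochondrial matrix, was at 1058 and 1370 in Acute-2d, 494 and 458 in Acute-7d, 73.1 and 71.7 in Effector, and 2.59 and 3.56 in T_Dysf. The T_Dysf values correspond to 3 and 4 reads. Mgarp (chromosome 3, 51388412 to 51396738, minus strand), a mitochondrial protein linked to organelle transport, was at 503 and 643 in Acute-2d, 145 and 167 in Acute-7d, 212 and 35.1 in Effector, and 0 in both T_Dysf libraries. The Effector libraries lay on both sides of Acute-7d. With 0 reads, up to 3 reads per library cannot be told from absence.

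Genes with roles outside the mitochondrion were also highest in Acute-2d. Vegfa (chromosome 17, 46016993 to 46032369, minus strand), the vascular endothelial growth factor, was at 1164 and 2818 in Acute-2d, 781 and 969 in Acute-7d, 222 and 138 in Effector, and 186 and 181 in T_Dysf. Effector spanned both T_Dysf values. P4ha1 (chromosome 10, 59323296 to 59373304, plus strand), a catalytic subunit of collagen prolyl hydroxylase, was at 4685 and 5486 in Acute-2d, 3176 and 3461 in Acute-7d, 987 and 879 in Effector, and 969 and 935 in T_Dysf. The T_Dysf values lay between those of Effector. Ankrd37 (chromosome 8, 45996902 to 46005707, minus strand), which encodes a small ankyrin repeat protein, was at 355 and 865 in Acute-2d, 291 and 282 in Acute-7d, 43.9 and 59.2 in Effector, and 43.2 and 24.02 in T_Dysf. The Acute-2d libraries differed most from each other in Vegfa and Ankrd37, by 1.28 on the log2 scale in each.

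**Figure D2:**
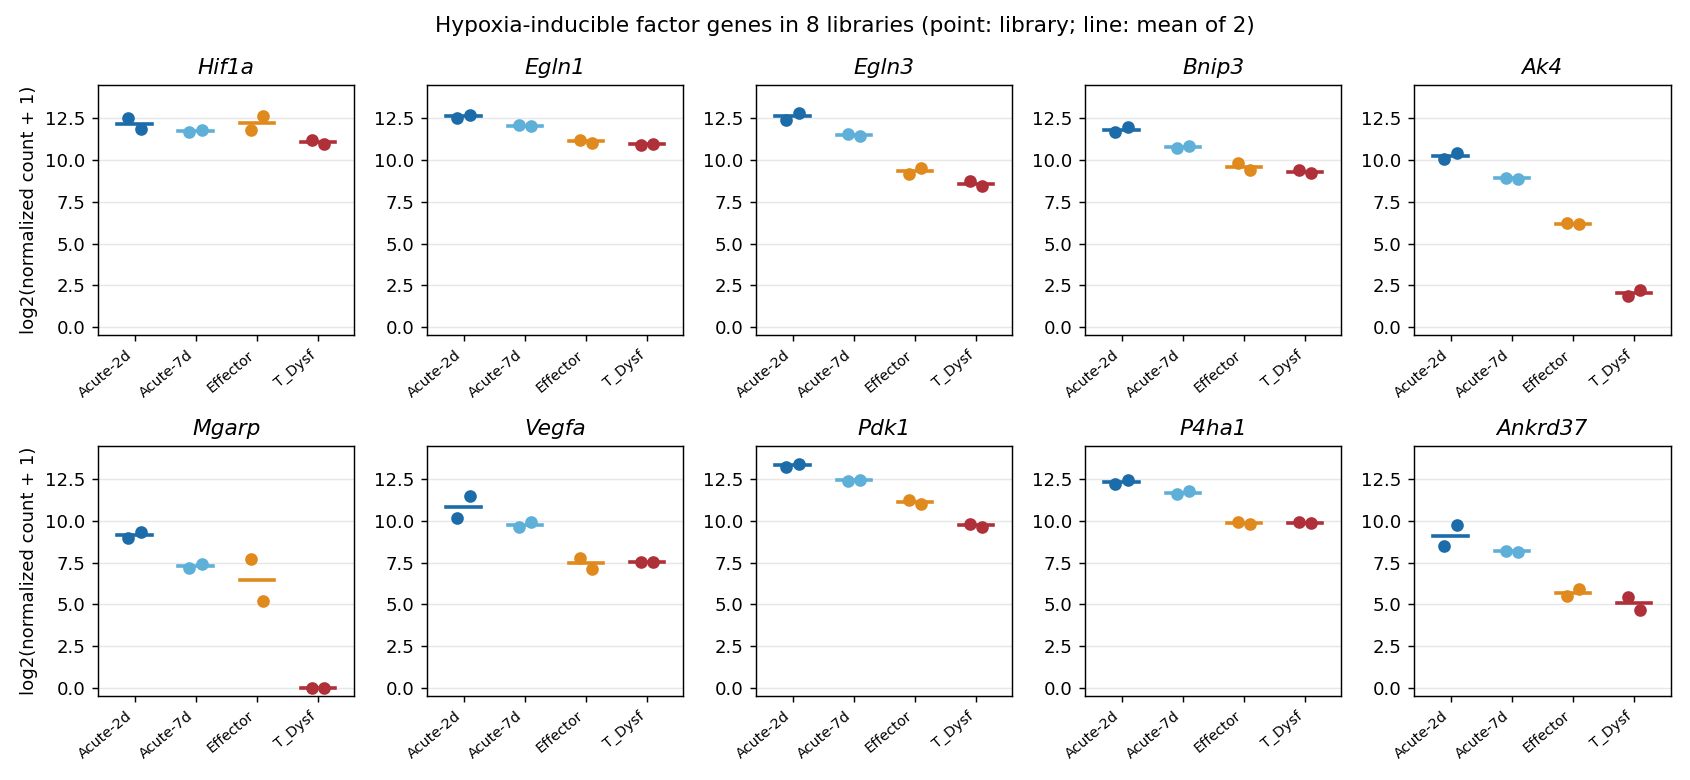
Level of each gene as log2(normalized count + 1) by condition. Points are libraries and lines are means of 2. Acute-2d is highest and T_Dysf or Effector lowest in every panel except Hif1a, where Effector has the highest mean. Ak4 at 2.59 and 3.56 normalized counts and Mgarp at 0 stand apart in T_Dysf.

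Acute-2d had the highest mean in 9 of the 10 genes, and Hif1a was the exception, with the highest mean in Effector. T_Dysf had the lowest mean in 8, while in Vegfa and P4ha1 the mean of Effector was marginally lower and the libraries overlapped. Per kilobase of exon (GENCODE vM21), the level in Acute-2d was highest for Egln3, at 2381 ± 543 (SD, n = 2) normalized counts, followed by Egln1 at 1744 ± 122, and the 2 intervals of 1 SD overlapped. In T_Dysf the highest were Egln1 at 546.6 ± 17.5 and Hif1a at 375 ± 43.6, and Egln3 ranked 5 at 145 ± 23.8. The range of group means ran from 2.24-fold for Hif1a and 3.19-fold for Egln1 through 16.4-fold for Egln3 and 18.2-fold for Ankrd37 to 395-fold for Ak4.

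The effect of antigen between day 2 and day 7, seen after rest, was addressed by Acute-7d against Acute-2d. All 10 genes were lower in Acute-7d, with a median log2 difference of -1.003, and none was called by limma. At an unadjusted p under 0.05 there were 6, and the lowest adjusted p among the 10 genes was 0.237, for Ak4. Over all genes 0.0905% were called lower and 0.0782% higher, with a median difference of 0. Mgarp differed by -1.87 ± 0.85 (adjusted p = 0.76), Ak4 by -1.34 ± 0.19 (adjusted p = 0.237) and Egln3 by -1.09 ± 0.22 (adjusted p = 0.38). For all 10 genes both Acute-7d libraries were below both Acute-2d libraries, a pattern found in 16.3% of all genes. Taken gene by gene, the unadjusted test separated 6 of the 10 genes from the spread between libraries. None passed the limit after adjustment over all genes.

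Day 7 Effector cells had low HIF target levels against cells rested to day 19, although Hif1a was not lower. Against Acute-2d, 8 of the 10 genes were called lower in Effector, beside 4.48% of all genes called lower and 4.31% higher. The median difference was -2.57. The largest difference was for Ak4, at -4.04 ± 0.19 on the log2 scale (SE, adjusted p = 0.00291), with a 16.8-fold higher mean in Acute-2d. Ak4 and Mgarp were noted for falls in T_Dysf from other conditions, so their p-values here are not free of that choice. The differences were -3.42 ± 0.51 for Ankrd37 (adjusted p = 0.0208), -3.36 ± 0.47 for Vegfa (adjusted p = 0.0184) and -3.24 ± 0.22 for Egln3 (adjusted p = 0.00659). Smaller differences were -2.44 ± 0.10 for P4ha1 (adjusted p = 0.00205), -2.22 ± 0.17 for Bnip3 (adjusted p = 0.00807), -2.21 ± 0.14 for Pdk1 (adjusted p = 0.0054) and -1.48 ± 0.09 for Egln1 (adjusted p = 0.00476). Mgarp differed by -2.70 ± 0.85 (adjusted p = 0.101) and Hif1a by 0.03 ± 0.36 (adjusted p = 1), of either sign under other scalings and without single libraries. With only these 2 conditions in the fit, or with a term for the prefix, 2 genes were called, Ak4 and P4ha1. Over all genes the calls went from 2135 to 235 and 350 in these fits. The prefix term rests on the 2 Acute-7d libraries alone, the only condition with both kinds of library.

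Against Acute-7d, 7 of the 10 genes were called lower in Effector, beside 3.88% of all genes called lower and 4.18% higher. The median difference was -1.57. Effector came first in time, on day 7 against day 19, so these are not falls over time. The log2 differences were -2.70 ± 0.19 for Ak4 (adjusted p = 0.00796), -2.15 ± 0.22 for Egln3 (adjusted p = 0.0136) and -1.83 ± 0.10 for P4ha1 (adjusted p = 0.00534). They were -2.47 ± 0.51 for Ankrd37 (adjusted p = 0.041), -2.30 ± 0.47 for Vegfa (adjusted p = 0.0401), -1.31 ± 0.14 for Pdk1 (adjusted p = 0.0137) and -1.16 ± 0.17 for Bnip3 (adjusted p = 0.0221). Egln1 differed by -0.92 ± 0.09 (adjusted p = 0.0118), short of the 2-fold limit. Mgarp differed by -0.84 ± 0.85 (adjusted p = 0.608), and its difference was 0.445 without Effector replicate 2. Hif1a differed by 0.45 ± 0.36 (adjusted p = 0.498). Both Effector libraries were below all 4 rested libraries in 8 genes, the exceptions being Hif1a and Mgarp, a pattern found in 21.2% of all genes.

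The prefix, and with it the sex read from Ddx3y and Xist, can be held fixed by setting Effector against Acute-7d replicate 1 alone. The differences were then -2.75 for Ak4, -2.49 for Ankrd37, -2.22 for Egln3, -2.15 for Vegfa and -1.77 for P4ha1. Against Acute-7d replicate 2, without the prefix, they were -2.65, -2.44, -2.08, -2.46 and -1.89 in the same order. The number of genes called was 3 with Acute-7d replicate 1 alone and 2 with Acute-7d replicate 2 alone, where the lone library is assumed to vary like the other conditions. Without Effector replicate 2 there were 4 called, and without either T_Dysf library also 4.

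T_Dysf cells held the lowest levels of most HIF targets. Against Acute-7d, which addresses continued antigen plus TGF-β1 after day 7 at the same day of collection, 8 of the 10 genes, all but Hif1a and Vegfa, lay past the limits used for calls. In this contrast 3.03% of all genes were called lower and 2.54% higher, and the count of 8 is a description because the genes were selected on it. The median difference was -2.47, beside 0 over all genes. Ak4 was 155-fold higher in Acute-7d than in T_Dysf (95% exact interval 74.9 to 386 from 896 and 7 reads, counting error only), and Mgarp at least 59.3-fold higher against the floor of 3 reads per library. Ankrd37 differed by -3.11 ± 0.51, Egln3 by -2.93 ± 0.22, Pdk1 by -2.70 ± 0.14 and Vegfa by -2.24 ± 0.47. P4ha1 differed by -1.80 ± 0.10, Bnip3 by -1.46 ± 0.17, Egln1 by -1.11 ± 0.09 and Hif1a by -0.66 ± 0.36. With a term for the prefix the count was 5, and over all genes calls went from 1353 to 541. That term rests on the 2 Acute-7d libraries alone. The count for the 10 genes also changed when single libraries were left out. In all 10 genes both T_Dysf libraries were below all 4 rested libraries, a pattern of 21.1% of all genes.

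Against Acute-2d, 9 of the 10, all but Hif1a, lay past the same limits, beside 4.21% of all genes called lower and 3.14% higher. This count too is a description of genes selected on T_Dysf values, with a median difference of -3.45. Ak4 was 395-fold higher in Acute-2d (191 to 983) and Mgarp at least 218-fold higher. Egln3 differed by -4.02 ± 0.22, Ankrd37 by -4.06 ± 0.51, Pdk1 by -3.60 ± 0.14 and Hif1a by -1.08 ± 0.36.

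Between T_Dysf and Effector the set divided. Against Effector, Ak4, Mgarp and Pdk1 lay past the limits, beside 4.75% of all genes called lower and 4.47% higher. Ak4 and Mgarp had been selected on their low T_Dysf values, so the count of 3 is again a description, with a median difference of -0.71. Ak4 was 23.5-fold higher in Effector (11.1 to 59.6), Mgarp at least 47-fold higher and Pdk1 2.63-fold higher. The mean in Effector over that in T_Dysf was 0.98 for P4ha1 and 0.984 for Vegfa, with log2 differences of 0.03 ± 0.10 and 0.06 ± 0.47 whose sign changed without Effector replicate 2. Egln1 differed by -0.19 ± 0.09, Bnip3 by -0.30 ± 0.17, Ankrd37 by -0.65 ± 0.51, Egln3 by -0.78 ± 0.22 and Hif1a by -1.11 ± 0.36. In bulk RNA, fewer cells with a transcript and less transcript per cell cannot be told apart. With only these 2 conditions in the fit the count was 0, and with a term for the prefix it was 1. Over all genes the calls went from 2241 to 465 and 386 in these fits.

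**Figure D3:**
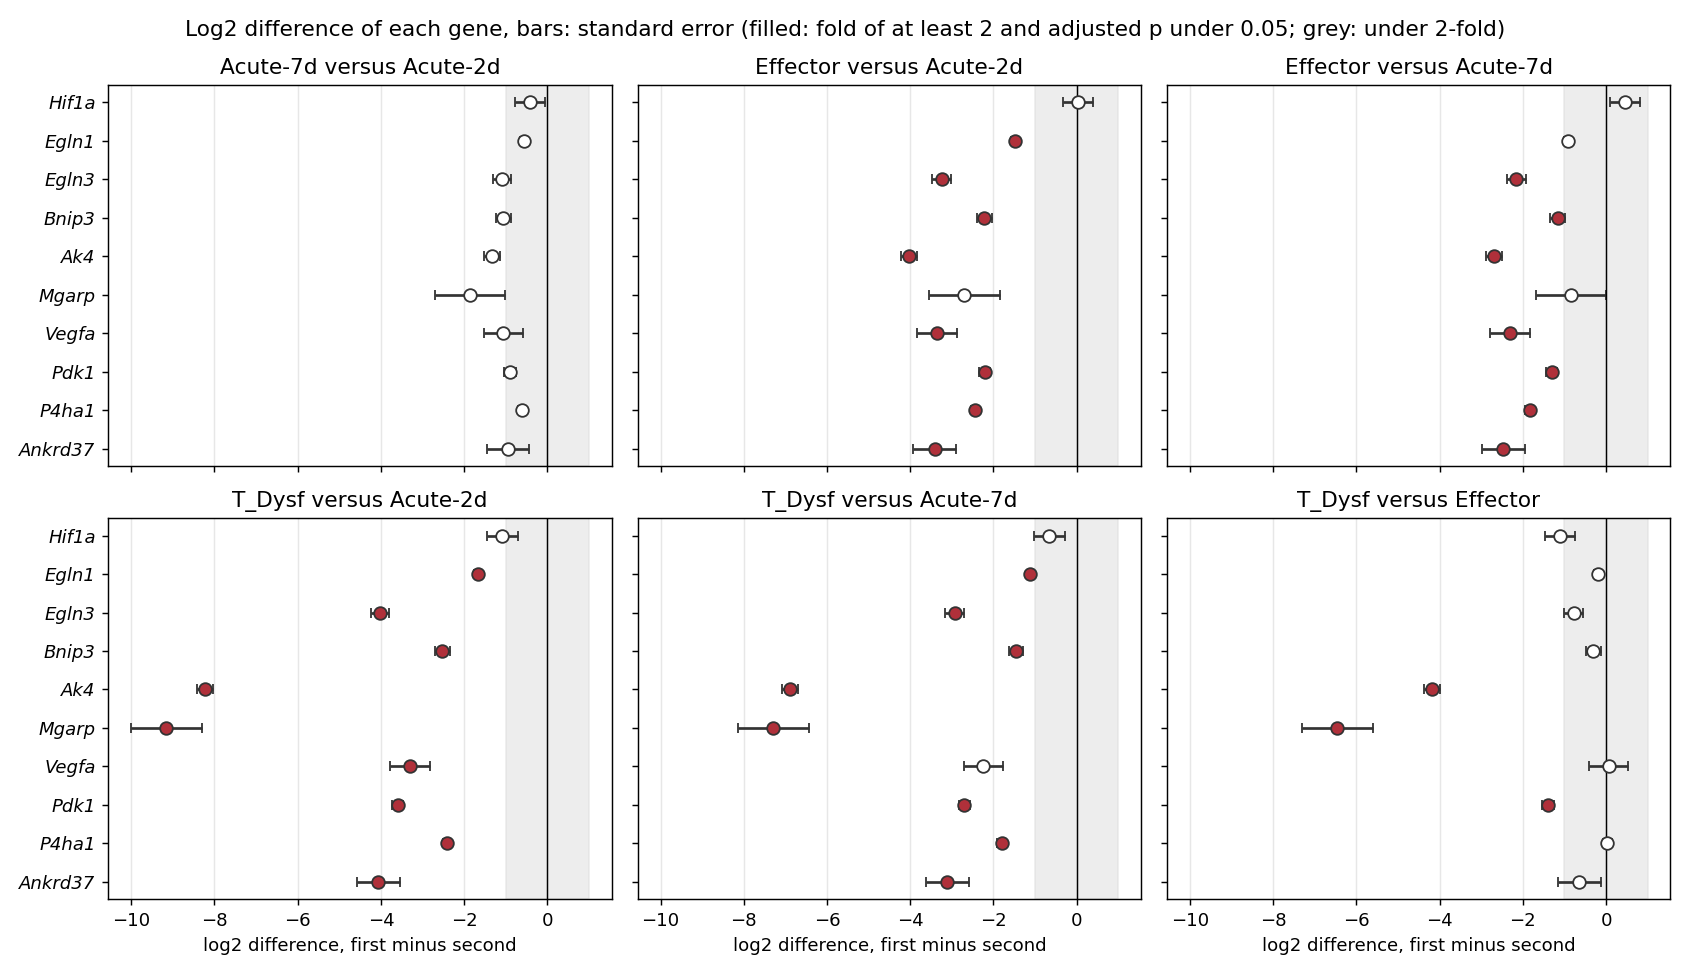
Log2 difference of each gene (first condition minus second) in 6 comparisons, with bars for the standard error. Filled points lie past the limits used for calls (a description in comparisons with T_Dysf), open points do not, and the grey band covers less than 2-fold. No point is filled in Acute-7d versus Acute-2d, 8 in Effector versus Acute-2d, 7 in Effector versus Acute-7d, 9, 8 and 3 in T_Dysf versus Acute-2d, Acute-7d and Effector.

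Other genes of the pathway were read from 3 lists without these 10: 12 genes of oxygen sensing, 22 further HIF targets in the table and 21 glycolytic HIF targets. For the counts of these lists, the background is the share of all genes called lower and higher. In T_Dysf these shares were 3.03% and 2.54% against Acute-7d, 4.21% and 3.14% against Acute-2d, and 4.75% and 4.47% against Effector. In Effector they were 4.48% and 4.31% against Acute-2d, and 3.88% and 4.18% against Acute-7d. In Acute-7d against Acute-2d they were 0.0905% and 0.0782%. Among the oxygen sensing genes, 2 of 12 were called in T_Dysf against Acute-7d and 6 had an unadjusted p under 0.05. Arnt2, a partner of HIF alpha best known in neurons, rose by 5.204 ± 0.95 (adjusted p = 0.0397), from 6.69 and 14.1 to 344 and 457 normalized counts, and Hif3a, an alpha relative that can restrain HIF, was lower at 8.63 and 7.12 against 30.1 and 48.5. Its difference was -2.15 ± 0.32 (adjusted p = 0.0242). Both were also called against Acute-2d, at 6.57 and -3.72, and against Effector, at 6.87 and -1.94. The other 10 were not called in these comparisons, among them Arnt, Vhl and Hif1an. Hif3a was lower in Effector than in Acute-2d too, with -1.78 ± 0.32 (adjusted p = 0.0286). No gene of this list was called by limma in Effector against Acute-7d, and 5 had an unadjusted p under 0.05.

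Glycolytic HIF targets parted from the 10 genes in Effector. Against Acute-7d, 2 of 21 were called lower. They were Slc2a1, the glucose transporter, with -1.29 ± 0.23 (adjusted p = 0.0298) and Pfkl, a phosphofructokinase subunit, with -1.03 ± 0.17 (adjusted p = 0.0272). The list median was 0.02, beside -1.57 for the 10 genes and 0 for all genes. Ldha, which makes lactate, was at 35923 and 41632 in Effector and 20347 and 20688 in Acute-7d, a difference of 0.91 ± 0.14 that was under 2-fold (adjusted p = 0.0234). Against Acute-2d, 6 of 21 were called lower in Effector, with Slc2a1 at -1.87, Slc2a3 at -1.54, Pfkl at -1.47 and Pfkp at -1.09. The list median was -0.91. The difference between the 2 lists was not tested.

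In T_Dysf the glycolytic list was lower as well. Against Acute-7d, 11 of 21 were called lower and none higher, and 19 had a negative difference. The calls were led by Slc16a3, the lactate exporter, with -2.28 ± 0.34 (adjusted p = 0.0256), Pfkl with -2.07 ± 0.17 (adjusted p = 0.00688), Tpi1 with -1.95 ± 0.14 (adjusted p = 0.00488) and Pgk1 with -1.56 ± 0.21 (adjusted p = 0.0197). The median was -1.23. Against Acute-2d, 18 of 21 were called lower, with Slc16a3 at -3.49, Tpi1 at -2.74, Pgk1 at -2.55 and Pfkl at -2.51. Against Effector, 11 of 21 were called lower, with Tpi1 at -2.35 and Pgk1 and Slc16a3 at -2.30, and with a list median of -1.20. This count depends on the fit, since over the 3 lists 21 of 55 genes were called in this comparison, 5 with only these 2 conditions in the fit and 0 with a term for the prefix. In Acute-7d against Acute-2d all 21 were lower, with a median of -0.71. None of them was called by limma, and 16 had an unadjusted p under 0.05.

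The further HIF targets had calls in both directions, mostly lower except in T_Dysf against Effector. In T_Dysf against Acute-7d 4 of 22 were called lower. They were Stc2, a secreted glycoprotein, with -2.86 ± 0.30 (adjusted p = 0.0114), Car12, a carbonic anhydrase, with -1.96 ± 0.22 (adjusted p = 0.013), the cytokine Mif with -1.70 ± 0.19 (adjusted p = 0.0125), and Fam162a, a mitochondrial protein, with -1.45 ± 0.20 (adjusted p = 0.0208). Plod1, a collagen lysyl hydroxylase, rose by 1.10 ± 0.13 (adjusted p = 0.0156). With a term for the prefix, higher calls over the 3 lists in this comparison went from 2 to 0, and lower calls from 16 to 2. In Effector against Acute-7d 5 of 22 were called lower and none higher, while 13 had a negative and 9 a positive difference. The 5 were Stc2 at -2.48 ± 0.30 (adjusted p = 0.0166), Plod2 at -1.65 ± 0.13 (adjusted p = 0.0103), the transcription factor Bhlhe40 at -1.20 ± 0.16 (adjusted p = 0.0194), and the histone demethylases Kdm4b at -1.33 ± 0.18 (adjusted p = 0.0189) and Kdm3a at -1.15 ± 0.14 (adjusted p = 0.0161). In Effector against Acute-2d 9 were called lower, led by P4ha2 at -5.73, Ndrg1 at -3.49, Stc2 at -2.53 and Plod2 at -2.12. Angptl4 was called higher, by 1.48 ± 0.31 (adjusted p = 0.0393). In T_Dysf against Effector 4 were called lower, with Car12 at -2.49, Mif at -2.19, Tfrc at -1.97 and Fam162a at -1.66. Another 4 were called higher, Car9 by 2.33, Plod1 by 1.93, Plod2 by 1.30 and Bhlhe40 by 1.18. Over the 3 lists together, 18 of 55 genes were called in T_Dysf against Acute-7d and 7 of 55 in Effector against Acute-7d. These became 2 and 0 without Acute-7d replicate 1, 4 and 3 without Acute-7d replicate 2 or T_Dysf replicate 1, and 8 and 3 without T_Dysf replicate 2. In Effector against Acute-7d the count was also 3 without Effector replicate 2.

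**Figure D4:**
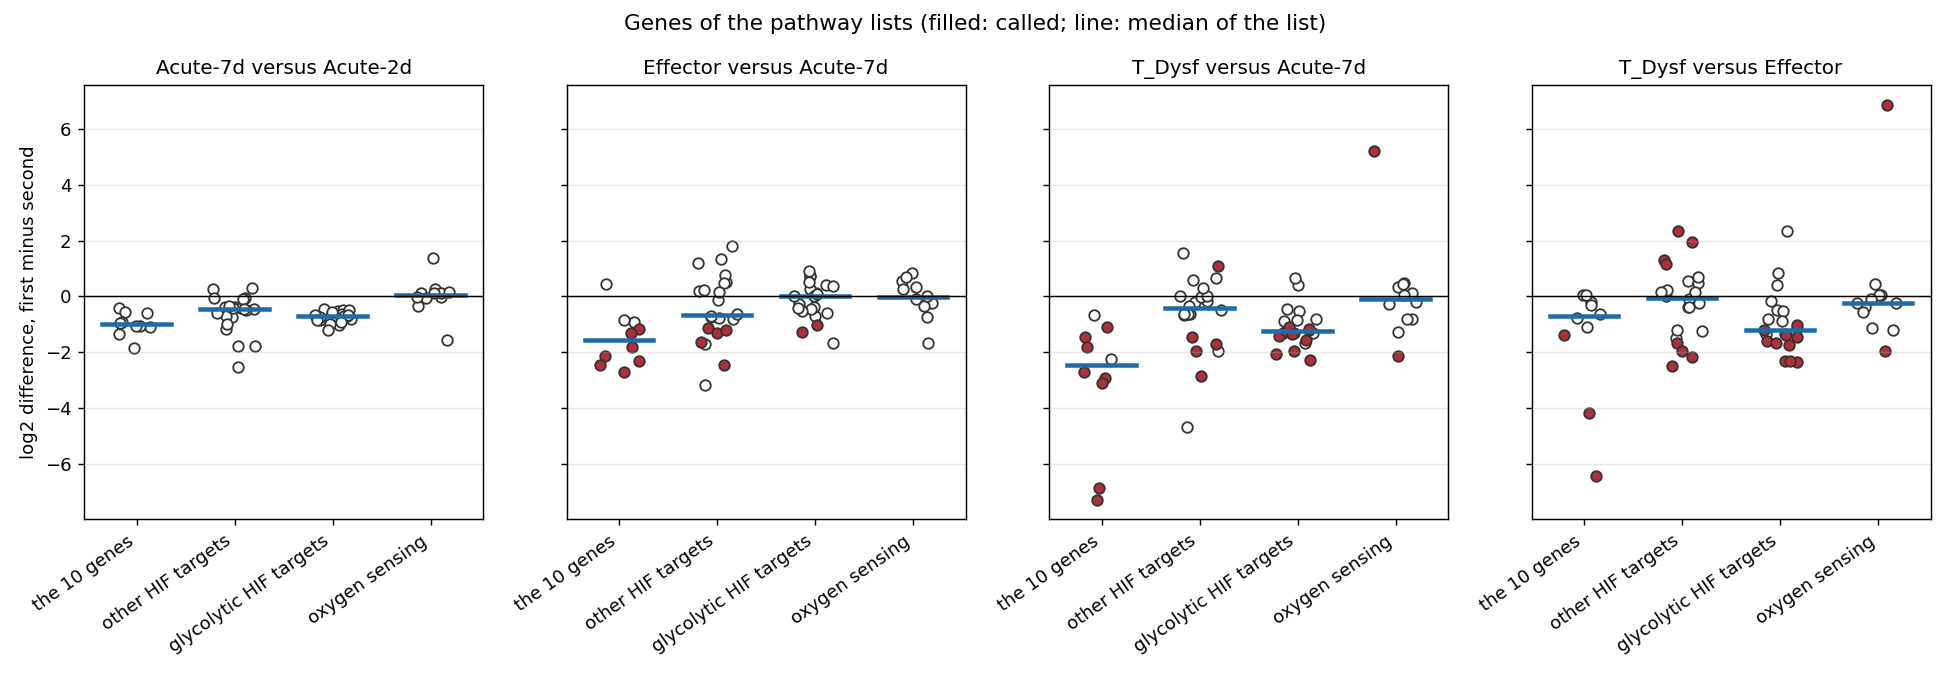
Log2 difference (first condition minus second) of each gene in 4 lists for 4 comparisons. Filled points are called and the blue line is the median of the list. In Effector versus Acute-7d the 10 genes have a median of -1.57 and the glycolytic list 0.02, and in T_Dysf versus Effector the medians are -0.71 and -1.20.

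Relatives of the 10 genes, from the same gene families, are given by their own values. Egln2, the third prolyl hydroxylase, was at 996 to 1639 normalized counts over all libraries and was not called in any comparison. Ak3, a mitochondrial kinase of the Ak4 family, was at 1185 to 1565 and was not called in any comparison. Ak1 did not exceed 16.9. Pdk2 was higher in T_Dysf, at 444 and 568, than in Effector, at 127 and 88.3. The difference was 2.23 ± 0.22 (adjusted p = 0.00779), opposite in sign to that of Pdk1 in this comparison. Pdk2 was at 367 and 409 in Acute-2d and 296 and 323 in Acute-7d, so Effector was below the rested cells, as for Pdk1. T_Dysf against Acute-7d differed by 0.70 ± 0.22 in Pdk2 (adjusted p = 0.128) and was not called. Pdk3 differed by 0.99 ± 0.15 in Effector against Acute-7d (adjusted p = 0.0231, under 2-fold), and Pdk4 was at 9.48 and 9.72 in Acute-2d and at 0 to 2.67 elsewhere.

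P4ha2, the second catalytic subunit of the collagen hydroxylase, was at 1463 and 2461 in Acute-2d, 310 and 341 in Acute-7d, 96.9 and 12.04 in Effector, and 15.5 and 8.90 in T_Dysf. Acute-2d was highest, Acute-7d next, and the libraries of Effector and T_Dysf, which were lowest, overlapped, as they did for P4ha1. Its difference in Effector against Acute-2d was -5.73 ± 0.99 (adjusted p = 0.0273). P4ha3 was at 0 to 1.12. Bnip3l, the other mitophagy receptor, was at 1324 to 4272 and was lower in Effector than in Acute-2d, with -1.25 ± 0.25 (adjusted p = 0.036), while in T_Dysf against Acute-7d it differed by -0.20 ± 0.25 (adjusted p = 0.685). Vegfb was at 201 to 506 and was not called in any comparison, nor was Vegfc at 0.91 to 45.4. Epas1, which encodes the second HIF alpha subunit, was at 62.1 to 226 and was not called.

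**Figure D5:**
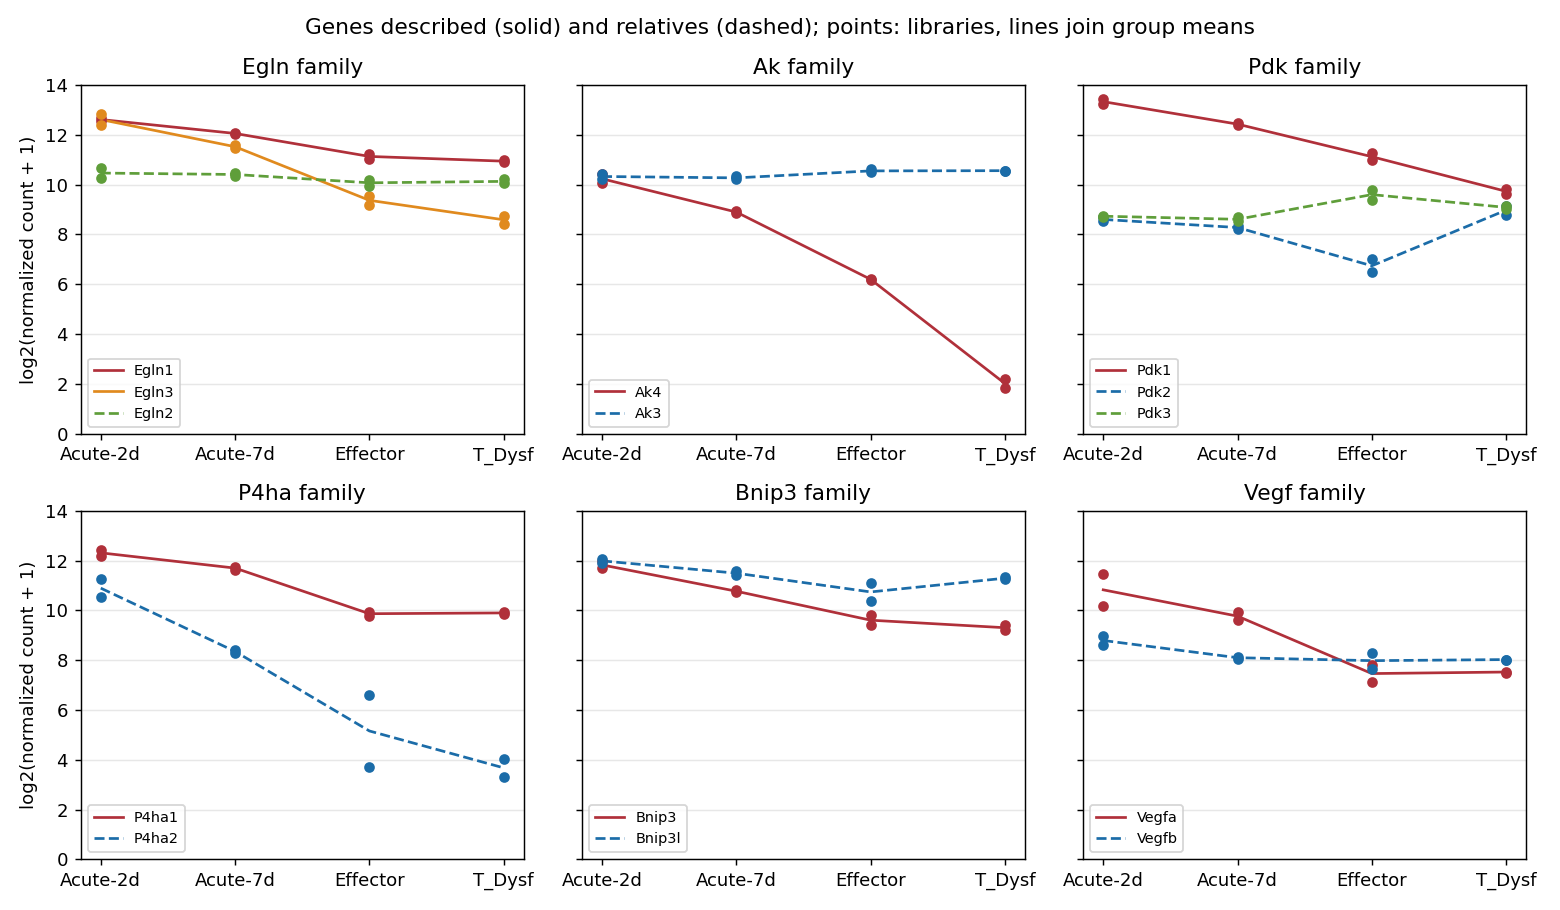
Levels of 6 gene families as log2(normalized count + 1) in 4 conditions. Solid lines are genes of the set, dashed lines relatives, points libraries, and lines join group means. Ak4 drops to 2.59 and 3.56 normalized counts in T_Dysf while Ak3 ranges from 1185 to 1565, and P4ha2 follows P4ha1 downward.

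Genes with the most similar profile were listed by the root mean square difference of centred log2 values over 8 libraries, among 12028 genes with a mean of at least 50. Egln3 and Ankrd37 were close to each other, at 0.26, with Arhgef11 nearest to Egln3 at 0.25 and Rapgef4 after them. P4ha1 and Bnip3 lay 0.25 apart, with Frat1 and Thra nearer to P4ha1 at 0.19 and 0.20. Ndrg1, itself a HIF target, was nearest to Vegfa at 0.31, followed by Ramp1 and Amt. Armcx2, at 0.19, Arrb1 and Arhgef11 were nearest to Pdk1, and Mppe1, at 0.08, Zkscan14 and Prxl2c to Egln1. Itga7, at 0.43, Fbxo10 and Tdrp were nearest to Ak4, while H2-Ob lay 0.96 from Mgarp and Itga7 1.02. Hif1a was nearest to Tgif1 at 0.18, Tgif2 and Parp12, and the closest of the other 9, Egln1, ranked 7019. These distances carry no test, and the points share the 8 libraries.

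Near-identical copies could share reads with 2 of the genes. A search of GENCODE vM21 transcripts (at least 200 aligned bases and 90% identity) found the pseudogene Ak3l2-ps with 99.6% identity over 672 bases of Ak4, and 6 other loci for Bnip3. Ak3l2-ps was at 59.9 and 62.5 normalized counts in Acute-2d, 17.3 and 25.3 in Acute-7d, 3.68 and 4.59 in Effector, and 0 in both T_Dysf libraries, the order of Ak4 itself. Of the Bnip3 copies, Gm16439 (98.9% over 564 bases) was at 218 and 301 in Acute-2d and 46.7 and 52.0 in T_Dysf, and AC160336.1 and Gm6532 were also in the table. Gm16439 and AC160336.1 were the 2 genes nearest to Bnip3 in profile, at 0.165 and 0.215. Ak4 corresponded to 442.5 and 453.9 reads in Acute-7d, not whole numbers. How reads were divided between these copies is not given in the sources used here, so levels of Ak4 and Bnip3 are uncertain to that extent. No such copy was found for the other 8 genes.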

How the data were processed

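RNA-Seq libraries of sorted viable CD8+ P14 cells (2 for each of 4 conditions) were analyzed. Per the labels and methods, poly(A) RNA was sequenced on a NovaSeq, reads were aligned to mm10 with STAR and quantified to RefSeq transcripts in Partek Flow, and the authors divided counts by DESeq2 median-ratio size factors. Versions of STAR and DESeq2 are not given in the sources used here. The deposited values are this normalized signal for 24303 genes. With a tolerance of 0.02, 53.3% to 75.8% of a library's values were whole multiples of 1 read, so count models were not used.

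Differences were tested with limma 3.58.1 (R 4.3.3; lmFit and eBayes with trend, two-sided) on log2(value + 1) in all 8 libraries without a low-value filter, with 4 residual degrees of freedom. A log2 fold change understates changes of low genes. Adjusted p-values are Benjamini-Hochberg over all genes. The script was tested on simulated data. Replicates differed by 26.7 to 63.5 times the sampling variance, so no library was a duplicate. Intervals and floors of 3 reads cover counting error only. Transcripts were searched with blastn 2.17.0, and promoters came from RefSeq.

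The 10 genes and the lists were chosen with earlier results of these data known. Named pathway genes were up to 4 per list, direction and comparison with the largest called difference and a mean of at least 50, apart from Ldha, Arnt, Vhl, Hif1an, Hif3a, Car9 and Kdm3a, which were chosen after their values were seen. A relative of the 10 genes is not reported here. Replicate numbers were not taken to pair samples in the main fit. Correlations of replicate differences ran from -0.20 to 0.20 over 6 pairs of conditions, which does not settle whether mice or cultures were shared. Alternatives covered pseudocounts, filters, scalings, voom, 2-group fits, a replicate block, a term for the RESUB prefix and leaving out each library.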

Additional observations from a re-analysis of the deposited data

How the results depend on the processing

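Of 1080 log2 differences of the 10 genes recomputed under alternatives, 1071 kept their sign, and the other 9 belonged to Hif1a, Mgarp, Vegfa and P4ha1. Counts of the 10 genes called were 5, 1, 2 and 3 with a term for the prefix in T_Dysf versus Acute-7d (8 as reported), T_Dysf versus Effector (3), Effector versus Acute-2d (8) and Effector versus Acute-7d (7). With only the 2 groups compared they were 0 in T_Dysf versus Effector, 2 in Effector versus Acute-2d and 1 in Effector versus Acute-7d. With the replicate block they were 7, 9, 3, 0, 8 and 5 in T_Dysf versus Acute-7d, Acute-2d and Effector, Acute-7d versus Acute-2d, and Effector versus Acute-2d and Acute-7d. Without 1 library at a time they ranged from 5 to 9 in T_Dysf versus Acute-7d and from 2 to 7 in Effector versus Acute-7d.

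For the 55 pathway genes, T_Dysf versus Acute-7d (18) gave 2 with the prefix term and 2 to 22 leaving out 1 library. T_Dysf versus Acute-2d (30) gave 12 to 32, the lowest without T_Dysf replicate 1. T_Dysf versus Effector (21) gave 5 in the 2-group fit, 0 with the prefix term and 7 to 20 leaving out 1 library, with 7 and 13 without T_Dysf replicates 1 and 2. Effector versus Acute-2d (17) gave 0 in the 2-group fit and with the prefix term, and 9 to 19 leaving out 1 library, with 9 to 11 without Effector replicate 2 or any Acute-2d or T_Dysf library. Effector versus Acute-7d (7) gave 12 with either filter or voom, 0 in the 2-group fit, 3 with the prefix term and 0 to 10 leaving out 1 library. The cause was not tested. Calls over all 24303 genes changed too. With the prefix term they went from 1353 to 541 in T_Dysf versus Acute-7d and from 2241 to 386 in T_Dysf versus Effector. They went from 2135 to 350 in Effector versus Acute-2d and from 1958 to 808 in Effector versus Acute-7d. In the 2-group fit they were 465 in T_Dysf versus Effector, 235 in Effector versus Acute-2d and 155 in Effector versus Acute-7d. Equal 75th percentiles shifted the median of all genes by -0.101 in Effector versus Acute-2d. Quantile normalization moved the share of calls that were higher in Acute-7d than Acute-2d from 46.3% to 75%, over few calls.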

Other observations

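The 2 Effector libraries differed by over 4-fold in 4 of the 62 genes of the set and the pathway lists with a mean of at least 50. The glycogen phosphorylase Pygl was at 959 normalized counts in replicate 1 and 98.3 in replicate 2, the aldolase Aldoc at 2515 and 403, P4ha2 at 96.9 and 12.04, and Mgarp at 212 and 35.1. All 4 were higher in replicate 1, and none of the 62 was over 4-fold lower there. Among 12028 genes with a mean of at least 50, 66 were over 4-fold higher in replicate 1, which is 0.549%, and 21 were over 4-fold lower. These genes were noticed after their values were seen, and both libraries carry the RESUB prefix.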
